A study of Mus musculus with 6 samples.

Results

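The inhibitors of DNA binding (ID proteins) were examined in PA6 cells, a mouse stromal line on which embryonic stem cells are grown in co-culture. The members are all the array probes named ID1, ID2, IDB2, ID3 or ID4. RefSeq lists Idb2 as an older name of Id2, so that these 5 names stand for 4 genes. They hold 6 of the 45281 probes and 5 of the 30854 gene names of the table. The family was chosen from its values with BMP4 against medium without growth factors on these same arrays. That difference is therefore given here as a description, without a test, and tests are given for FGF2 against the same medium and for genes outside the family.

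Confluent monolayers of PA6 cells alone received serum-free medium for 3 h. It held no growth factor (-GFs), 20 ng/ml of FGF2 or 10 ng/ml of BMP4, both recombinant and dosed as in the sample labels. The methods on the co-cultures give a lower dose of BMP4. All groups are wild-type cells of 1 line without embryonic stem cells. Each group has 2 replicates with 1 Illumina MouseWG-6 v2.0 array each. According to the labels, each biological replicate consists of 1 well per condition. Whether the replicates came from separate thaws or days is not stated, so that p-values measure only the spread between these arrays. With 2 against 2 arrays an exact two-sided permutation test cannot go below p = 0.333.

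Between 15509 and 16459 probes per array were detected (34.3% to 36.3%), that is, with a detection p under 0.05 against the negative control beads, and the median raw intensity lay between 153.4 and 168.1. Intensities were normalized by a cubic spline and converted to log2, and levels are on this scale unless they are called raw. All 9 markers of stromal fibroblasts, among them COL1A1, PDGFRA and CXCL12, were detected on every array. Of the markers of other cell types, only PPARG, TEK, CD14, CDH1 and POU5F1 were detected on all 6 arrays. Detected on no array were 3 of 5 endothelial, 3 of 5 haematopoietic, 3 of 4 epithelial and 3 of 4 pluripotent markers. The same held for 1 of 6 adipocyte and 2 of 5 osteoblast markers, and 0 osteoblast markers were detected on all arrays. The summed linear intensity of the 6 adipocyte markers differed between the replicate numbers, from 2996 to 3306 on the arrays of replicate 1 and from 6262 to 7336 on those of replicate 2. The part of these cells or states in the results was not tested. Of the bulk values as a whole, fewer expressing cells and less RNA per cell cannot be told apart.

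ID proteins have a helix-loop-helix domain through which they pair with other proteins, but they lack the basic region that contacts DNA. They bind the ubiquitous E proteins and some tissue-specific basic helix-loop-helix (bHLH) factors, which then cannot bind E-box sequences as active dimers. ID genes are classical direct targets of BMP signalling. BMP receptors phosphorylate SMAD1, SMAD5 and SMAD9, which enter the nucleus with SMAD4 and bind GC-rich elements and SMAD boxes near these genes. In stromal and mesenchymal cells, ID proteins are known to favour proliferation and to hold back differentiation.

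The sequences before the start sites of 3 of the 4 genes are shown because these genes were higher together with BMP4. Each is the stretch of 250 bases directly upstream of the RefSeq start (build GRCm38.p6), written 5′ to 3′ on the strand of the gene. Capitals mark each match to GGCGCC, a palindrome of the GC-rich kind bound by BMP SMADs, and to the SMAD box GTCT on either strand (AGAC on the strand shown). No promoter is printed for Id1.
Id2, chr12:25096093-25096342, minus strand: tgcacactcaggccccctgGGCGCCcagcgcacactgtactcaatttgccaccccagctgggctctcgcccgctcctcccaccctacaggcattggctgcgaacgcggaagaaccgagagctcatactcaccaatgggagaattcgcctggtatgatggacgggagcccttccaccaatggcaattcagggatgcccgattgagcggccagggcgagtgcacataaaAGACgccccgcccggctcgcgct
Id3, chr4:136143572-136143821, plus strand: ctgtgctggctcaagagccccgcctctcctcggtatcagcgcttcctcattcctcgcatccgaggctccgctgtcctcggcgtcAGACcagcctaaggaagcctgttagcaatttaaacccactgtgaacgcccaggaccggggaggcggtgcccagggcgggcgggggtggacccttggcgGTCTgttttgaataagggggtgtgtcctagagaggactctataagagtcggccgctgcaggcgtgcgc
Id4, chr13:48260866-48261115, plus strand: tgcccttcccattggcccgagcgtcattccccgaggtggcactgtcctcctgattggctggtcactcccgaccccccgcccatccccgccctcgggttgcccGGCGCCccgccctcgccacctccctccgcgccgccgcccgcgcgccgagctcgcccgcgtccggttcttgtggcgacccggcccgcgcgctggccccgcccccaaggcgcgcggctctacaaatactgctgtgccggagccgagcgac

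The GGCGCC palindrome occurs once before Id2, from -231 to -226 relative to the start, and once before Id4, from -148 to -143. It is absent from the window of Id3. Among all 32851 promoter windows of the same length, 9.59% hold it. The SMAD box GTCT occurs 2 times before Id3, at -166 to -163 and -68 to -65, once before Id2, at -23 to -20, and not before Id4. With only 4 letters it is found in 82.9% of all windows. Of 2 further motifs searched on both strands, the E-box CANNTG has 1 match before Id2 (66.2% of all windows hold it). The longer GC-rich element GCCGNCGC has 1 match before Id4 (6.89% of all windows). None of the matches overlaps another. The windows are rich in G and C, at 62.8% for Id2, 62.8% for Id3 and 75.6% for Id4. A match is a description of the letters and does not show binding.

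**Figure D1:**
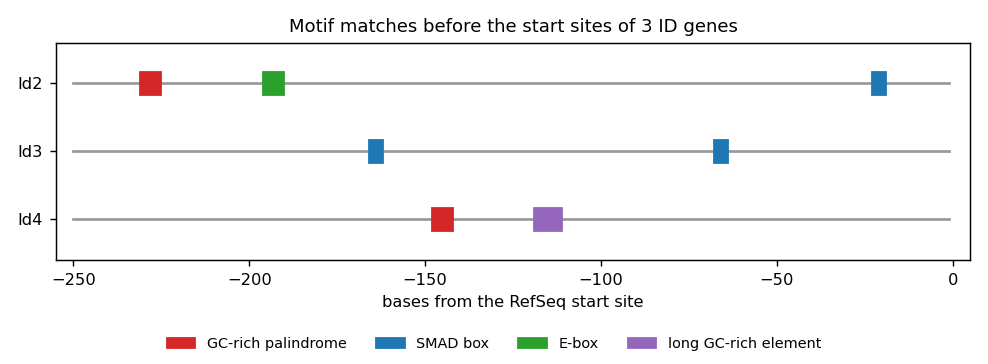
Positions of the motif matches in the 250 bases upstream of the RefSeq start sites of Id2, Id3 and Id4; the horizontal axis gives bases from the start site, and each coloured block is 1 match on either strand. The GC-rich palindrome lies before Id2 and Id4, and the SMAD boxes before Id2 and Id3.

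ID1 was detected on all 6 arrays. Its log2 level was 9.73 and 9.74 in -GFs medium, 10.27 and 9.94 with FGF2, and 12.49 and 12.54 with BMP4. In raw intensity the BMP4 wells gave 5036.5 and 6335.9, where the -GFs wells gave 980.6 and 799.2. Both BMP4 arrays were thus far above the others, which lay close together. The difference between BMP4 and -GFs was 2.77 on the log2 scale, a 6.84-fold higher level, with 6.75-fold in replicate 1 and 6.94-fold in replicate 2. The SD between replicates was 0.01 in -GFs medium and 0.04 with BMP4 (n = 2 each).

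ID3 had a log2 level of 8.04 and 8.63 in -GFs medium, 7.38 and 8.53 with FGF2, and 10.10 and 10.78 with BMP4. The array of replicate 2 was the higher one in each of the 3 groups. The pairs nevertheless gave nearly the same difference between BMP4 and -GFs, 2.06 in replicate 1 and 2.15 in replicate 2, with a mean of 2.10 (4.29-fold). On the FGF2 array of replicate 1 the probe was not detected, whereas on that of replicate 2 it was detected at a level between those of the -GFs arrays.

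ID2 is represented by 3 probes, 2 under its present name and 1 as IDB2. They differed widely in their response. The first ID2 probe stood at 8.19 and 7.95 in -GFs medium, at 7.27 and 7.45 with FGF2, where it was detected on neither array, and at 9.86 and 9.72 with BMP4. Its mean difference between BMP4 and -GFs was 1.72 (3.30-fold), with 1.67 and 1.78 in the 2 pairs.

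The IDB2 probe stood at 8.50 and 7.87 in -GFs medium, at 7.54 and 7.50 with FGF2, again undetected on both arrays, and at 11.53 and 9.31 with BMP4. Its raw intensity with BMP4 was 2648.6 in replicate 1 and 639.1 in replicate 2. The mean log2 difference of 2.24 therefore hides an 8.21-fold higher level in replicate 1 and a 2.72-fold higher level in replicate 2. No other ID probe had a comparable distance between its BMP4 arrays (SD 1.57 for IDB2, 0.02 to 0.48 for the other 5 probes, n = 2). Without BMP4 replicate 1 the difference of IDB2 was 1.13, and without BMP4 replicate 2 it was 3.34.

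The second ID2 probe was close to the background. It was detected on both BMP4 arrays, at 7.68 and 7.65, and on none of the others, which lay between 6.97 and 7.40. With BMP4 it was higher by a bound of at least 1.05-fold. Such a bound divides the mean of the group with signal by a limit for the group without. The spread between replicates does not enter it. The limit of an array is its lowest detected probe, or the level of the probe in question where that is higher.

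ID4 had the lowest difference of the 4 genes with BMP4. Its log2 level was 8.13 and 8.001 in -GFs medium, 7.80 and 7.80 with FGF2, and 8.77 and 9.25 with BMP4, and it was detected on all 6 arrays. The mean difference between BMP4 and -GFs was 0.94 (1.92-fold), from 0.64 in replicate 1 to 1.25 in replicate 2. The gene lay just below the fold part of the study's threshold, a log2 fold change beyond 1 in either direction. By the size of the difference among all 11872 genes tested, ID1, IDB2, ID3 and ID2 ranked 1 to 4 and ID4 ranked 10. All 5 names had both BMP4 arrays above both -GFs arrays, as did 11.2% of all genes tested. This contrast is the one the family was chosen from, and nothing is read from the ranks or the count. ID2 and IDB2 also stand for 1 gene.

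**Figure D2:**
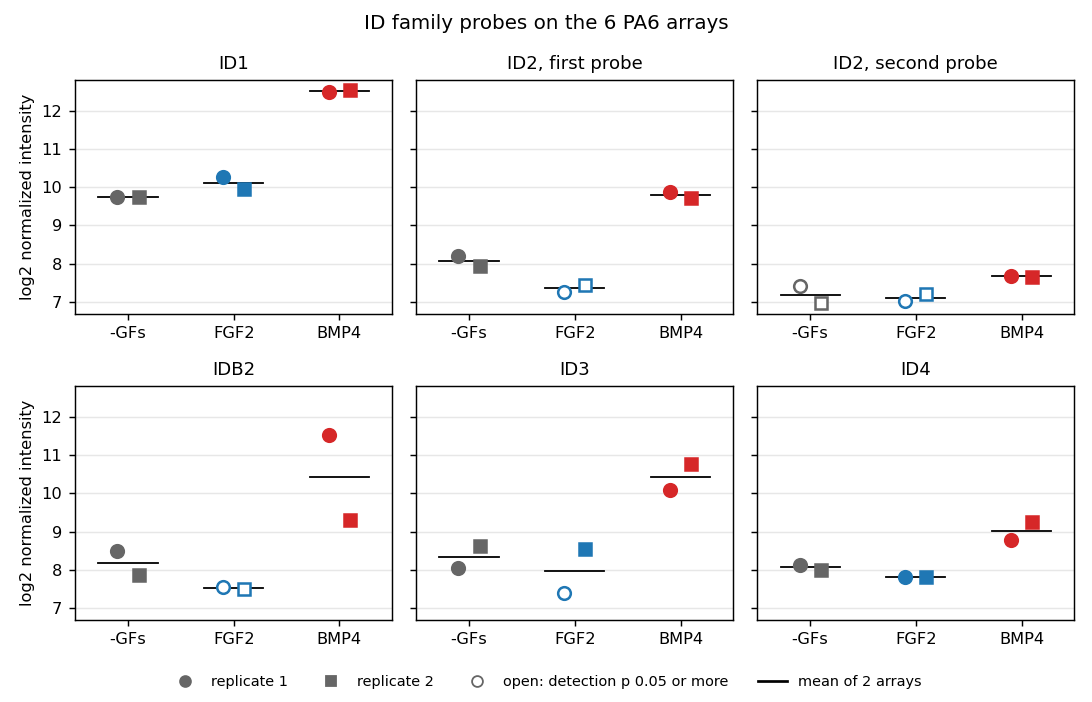
Log2 normalized intensity (vertical axis) of the 6 ID probes on the arrays of the 3 groups; circles are replicate 1, squares replicate 2, open symbols undetected values and black lines the mean of 2 arrays. With BMP4 each probe sits above its -GFs arrays, from 12.49 and 12.54 for ID1 to 7.68 and 7.65 for the second ID2 probe, and IDB2 shows the widest distance between its BMP4 arrays.

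The question for FGF2 was whether a growth factor that acts mainly through receptor tyrosine kinases and ERK moved the same family. In limma, no member met that fold together with an adjusted p under 0.1, the study's full threshold. Among all genes tested, 1.25% were called lower and 2.28% higher (148 and 271 genes). With arrays scaled to their median in place of the spline, 209 were called lower and 208 higher, and without normalization 214 and 213. At an unadjusted p under 0.05 there was 1 member, ID2, beside 23.3% of all genes. The methods' t-test after correction called 0 genes of the whole array with FGF2, so that its 0 among the members holds no information. At an adjusted p under 0.1 without the threshold on the fold, ID2 was lower and passed, 1 of 5 names, where 5.77% of all genes passed in that direction. None passed among the higher genes, which were 6.03% of all.

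ID2 fell by 0.71 on the log2 scale with FGF2 (standard error 0.16, 95% interval -1.10 to -0.32, limma's adjusted p = 0.0549). It was lower in both replicates, by 0.92 in replicate 1 (-0.92) and by 0.50 in replicate 2 (-0.50). Since both FGF2 arrays were below detection, the mean change is given as a bound of at least 1.39-fold lower. The spread between replicates does not enter this bound, and the upper end of the interval, -0.32, is a smaller change. The adjusted p passed 0.1 when either BMP4 array was left out, but not without -GFs replicate 1 (-0.57, adjusted p = 0.177), -GFs replicate 2 (-0.84, 0.10), FGF2 replicate 1 (-0.62, 0.268) or FGF2 replicate 2 (-0.82, 0.225). With the mean of both ID2 probes the log2 fold change was -0.40 (adjusted p = 0.215), and with neqc, which corrects the background from the negative controls before quantile normalization, it was -1.64 (adjusted p = 0.0315), which met both parts of the threshold.

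The IDB2 probe of the same gene had a log2 fold change of -0.66 with FGF2, with a wide interval from -2.18 to 0.86 (limma's adjusted p = 0.595). By the detection bound, which leaves out the spread between replicates, its mean was at least 1.51-fold below its -GFs level. ID3 had a log2 fold change of -0.38 (interval -1.37 to 0.62, adjusted p = 0.647), which consisted of -0.66 in replicate 1 and -0.09 in replicate 2. Without FGF2 replicate 1 its sign turned, to 0.20. ID4 had -0.27 (interval -0.72 to 0.18, adjusted p = 0.449), with -0.34 and -0.20 in the pairs.

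ID1 differed in sign from the other members. Its log2 fold change with FGF2 was 0.37 (standard error 0.16, interval -0.02 to 0.76, limma's adjusted p = 0.232), a 1.29-fold higher level, with 0.54 in replicate 1 and 0.20 in replicate 2. Both FGF2 arrays of ID1 were above both -GFs arrays. No share of all genes in that direction is set beside this, and nothing is read from it. For ID2, IDB2 and ID4, 3 of the 5 names, both FGF2 arrays were below both -GFs arrays, where 29.2% of all genes tested were. ID2 and IDB2 are probes of 1 gene. The second ID2 probe, detected on no -GFs or FGF2 array, differed by -0.39 in replicate 1 and 0.23 in replicate 2. The difference in direction between ID1 and the other members was not tested.

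Since the wells of a replicate belong together by the labels, a second model that also held the replicate number was set beside these values. This replicate block raised the share of all genes that passed an adjusted p of 0.1 for FGF2 to 18.1% higher and 19.6% lower. Of the 5 names 3 then passed, ID1 as the higher one (0.0612) and ID2 (0.00128) and ID3 (0.0737) as lower ones. With neqc and the block, tried after the data had been seen, ID1 (0.146) and ID3 (0.159) did not pass, and ID2 (0.00685) and IDB2 (0.082) did. With the block alone, none exceeded the threshold on the fold, and IDB2 (0.106) and ID4 (0.206) did not pass.

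The -GFs arrays are shared by both comparisons, and the values of each are set side by side without a correlation. ID1 differed from -GFs by 0.37 with FGF2 and by 2.77 with BMP4. The first ID2 probe differed by -0.71 and 1.72, IDB2 by -0.66 and 2.24, ID3 by -0.38 and 2.10, and ID4 by -0.27 and 0.94. ID2 went from undetected with FGF2 to a clear signal with BMP4, and its level with BMP4 was at least 4.61-fold that with FGF2. For IDB2 this bound was 7.13-fold, but 3.30-fold without BMP4 replicate 1 and 15.4-fold without BMP4 replicate 2. For the second ID2 probe it was only 1.05-fold.

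**Figure D3:**
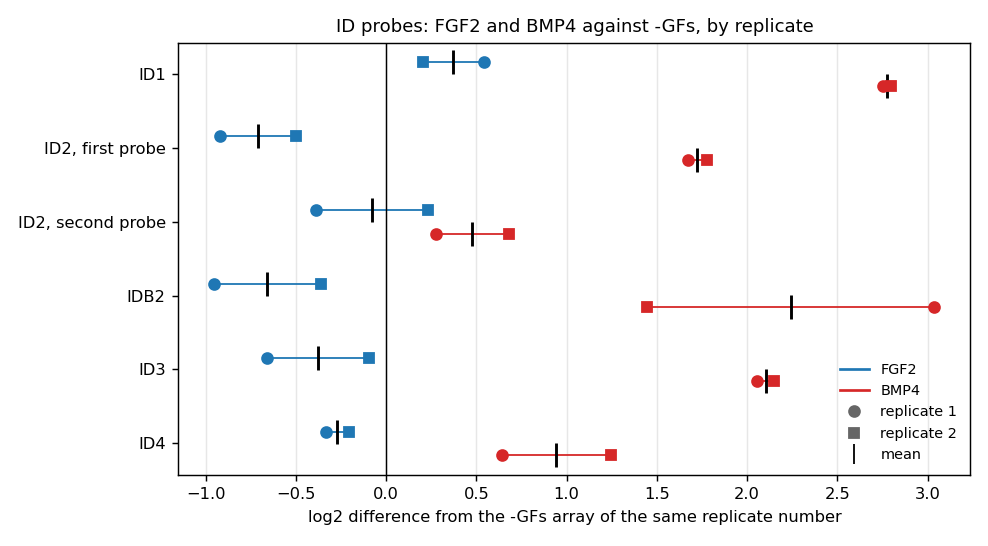
Log2 difference from the -GFs array of the same replicate number (horizontal axis) for each ID probe; blue is FGF2, red BMP4, circles replicate 1, squares replicate 2 and black ticks the mean. Apart from ID1 and the second ID2 probe, all FGF2 values lie below 0, from -0.95 to -0.09, and all BMP4 values lie above 0.

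The genes outside the family with the pattern most like that of ID1 over the 6 arrays were sought. The search covered 1883 genes whose levels spanned at least 1 on the log2 scale, and the ID members were left out of it. Pearson's r, which here mainly separates the BMP4 arrays from the others and carries no p, was highest for IRF5 (0.963), a transcription factor of the interferon response. LOC670044 (0.939), the gene of the kinesin family member KIF26B (0.934), ATOH8 (0.933) and GSE1 (0.886) followed. IRF5 stood at 7.92 and 7.82 in -GFs medium, 7.74 and 7.58 with FGF2, and 8.94 and 9.02 with BMP4. ATOH8, which encodes a bHLH factor, was also the gene most like ID4 (r = 0.998). It stood at 8.05 and 7.93 in -GFs medium, at 7.63 and 7.63 with FGF2, and at 9.22 and 9.79 with BMP4. As for ID4, its FGF2 arrays were the lowest and the BMP4 array of replicate 2 the highest. KIF26B (0.980), IRF5 (0.972), the heparan sulfate sulfotransferase gene HS3ST3A1 (0.955) and MXRA7 (0.927) were the next closest to ID4 outside the family. The arrays share their cell line, array type and normalization.

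Possible partners of the ID proteins were looked at as a list of 33 bHLH genes, the 3 E proteins and 30 tissue-specific or inhibitory bHLH factors. They are called partners below only as a label, and whether each pairs with an ID protein was not tested. Only 9 of them were detected well enough to be tested, and the other 24 included the E protein TCFE2A. With FGF2, 3 of the 9 rose, 1 fell and 5 did not pass an adjusted p of 0.1, where 6.03% of all genes rose and 5.77% fell. The median log2 fold change of the 9 was 0.07, beside -0.02 over all genes tested. With BMP4, 0 of the 9 passed in limma, where 0.00842% of all genes did. At an unadjusted p under 0.05 there were 3 of the 9, beside 1.81% of all genes. The median of the 9 was 0.25 with BMP4, beside 0.00 over all genes. The list was written with earlier results of these arrays known, and ATOH8 and HEY1 recur among the BMP targets below. Nothing is therefore read from the counts with either factor.

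BHLHB2, the array's name for Bhlhe40, a repressor that responds to serum and growth factors, rose most with FGF2. Its level was 9.03 and 9.16 in -GFs medium, 11.60 and 11.56 with FGF2, and 8.63 and 9.21 with BMP4. The log2 fold change for FGF2 was 2.49 (standard error 0.21, limma's adjusted p = 0.00456), and both FGF2 arrays lay far above the rest. TWIST1, a bHLH factor of mesenchymal cells that pairs with E proteins, stood at 8.31 and 8.49 in -GFs medium, 9.56 and 9.61 with FGF2, and 8.65 and 8.65 with BMP4. It rose by 1.18 with FGF2 (adjusted p = 0.0105), a call lost without FGF2 replicate 2 (1.16, adjusted p = 0.111). TWIST2 did not pass with either factor (0.07 and -0.29).

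HEY1 encodes a bHLH repressor downstream of Notch and BMP. It stood at 10.10 and 10.09 in -GFs medium, 11.18 and 10.76 with FGF2, and 10.93 and 10.92 with BMP4. The FGF2 change was 0.88 (limma's adjusted p = 0.0393), and it did not pass when any of the -GFs or FGF2 arrays was left out (adjusted p from 0.111 to 0.201). The BMP4 difference was 0.83 (adjusted p = 0.999, or 0.022 with the replicate block and 0.448 with neqc and the block). HEY2, its close relative, fell with FGF2 by 0.58 on the log2 scale (-0.58, adjusted p = 0.0612), from 7.74 and 7.65 to 7.13 and 7.12, where it was detected on neither array. Its bound was at least 1.08-fold lower. It did not pass without any one of the -GFs or FGF2 arrays (adjusted p from 0.152 to 0.295), nor without BMP4 replicate 2 (0.10).

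ATOH8 had a log2 difference of 1.52 with BMP4 (limma's adjusted p = 0.388) and of -0.36 with FGF2 (adjusted p = 0.356). For BMP4 it passed with the replicate block (5.38e-05), as 0.227% of all genes did, but not with neqc and the block (0.167). Of the E proteins, TCF4 differed by 0.48 with FGF2 and 0.25 with BMP4, and TCF12 by 0.06 and -0.05, none of which passed (adjusted p from 0.628 to 0.999). The TCF4 levels of the replicates lay apart, with 11.90, 12.07 and 12.17 on the arrays of replicate 1 and 10.71, 11.50 and 10.94 on those of replicate 2. With the replicate block its FGF2 change passed (adjusted p = 0.0324). HES1, a Notch target, had -0.08 with FGF2 and -0.07 with BMP4.

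**Figure D4:**
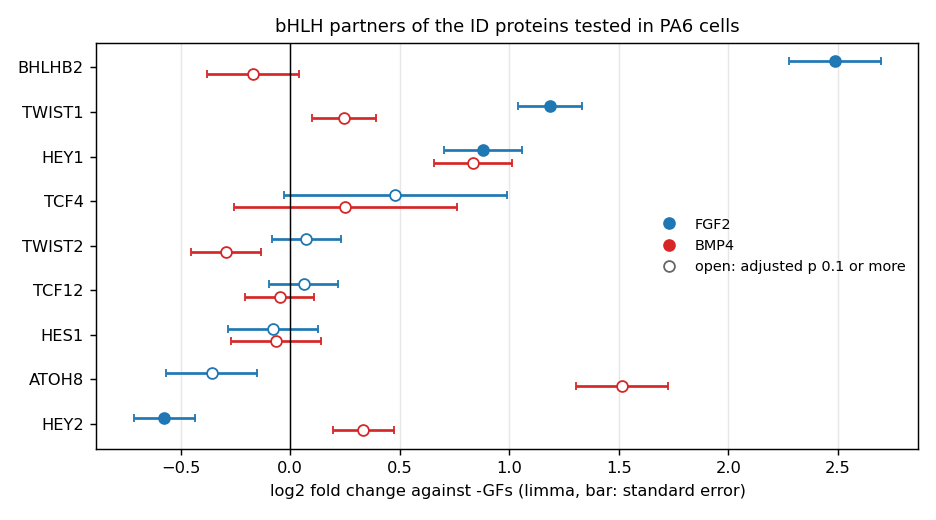
Log2 fold change against -GFs (horizontal axis, bars are standard errors from limma) of the 9 genes tested from the list of possible bHLH partners. Blue is FGF2, red BMP4, and filled circles passed an adjusted p of 0.1. BHLHB2 (2.49), TWIST1 (1.18), HEY1 (0.88) and HEY2 (-0.58) passed with FGF2 and none with BMP4.

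Upstream of the ID genes, 29 ligands, receptors, SMADs and inhibitors of the BMP pathway were listed, and 14 were tested. With FGF2, 1 of the 14 rose and 0 fell, beside 6.03% and 5.77% of all genes. At an unadjusted p under 0.05 there were 5 of the 14, beside 23.3% of all genes, and the median log2 fold change was 0.04. The riser was FST, which encodes follistatin, a secreted antagonist of activins and some BMPs. It went from 9.96 and 10.27 to 10.76 and 11.28 (log2 fold change 0.91, limma's adjusted p = 0.0655), and did not pass without any one of the -GFs or FGF2 arrays (adjusted p from 0.116 to 0.332). With the replicate block 6 passed, 2 higher and 4 lower, where 18.1% of all genes passed as higher and 19.6% as lower.

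With BMP4, 0 of these 14 passed in limma, where only 0.00842% of all genes did. At an unadjusted p under 0.05 there was 1, beside 1.81% of all genes, and the median was 0.03. Of the SMADs that carry the BMP signal, SMAD1 differed from -GFs by 0.06 and SMAD5 by 0.09. SMAD6, which encodes an inhibitory SMAD and is itself a BMP target, stood at 8.11 and 7.97 in -GFs medium and at 8.37 and 8.72 with BMP4, a difference of 0.50 (limma's adjusted p = 0.999, or 0.313 with the replicate block). The endogenous BMP4 transcript differed by 0.12 with BMP4 and 0.28 with FGF2.

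Of 20 genes known as BMP targets outside the ID family, 8 were tested. The lists overlap: ATOH8 and HEY1 were already counted among the bHLH genes, and SMAD6 in the BMP pathway. TBX2 was detected with FGF2 but on no -GFs or BMP4 array. Of the other 7, 0 passed in limma with BMP4, where only 0.00842% of all genes did. At an unadjusted p under 0.05 there were 3, beside 1.81% of all genes, and the median log2 difference of the 7 was 0.04. ATOH8 (1.52), HEY1 (0.83) and SMAD6 (0.50) had the highest values in the list, which was written with earlier results of these arrays known. MSX1 differed by 0.04 and GATA6 by -0.02. With FGF2, 3 of the 8 rose, where 6.03% of all genes did. As earlier results were known when the list was written, nothing is read from this count. TBX3, a T-box factor, had a log2 fold change of 1.59 (adjusted p = 0.00489), or 0.86 as the mean of its 2 probes. GATA2, a zinc finger factor, went from 10.13 and 10.10 to 11.03 and 11.11 (0.96, adjusted p = 0.0171), which did not pass without FGF2 replicate 1 (adjusted p = 0.117) or FGF2 replicate 2 (0.156).

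Genes that ID proteins are known to hold down were listed as CDKN1A, CDKN1B, CDKN2A, CDKN2B and THBS1, and 4 were tested. THBS1, which encodes the angiogenesis inhibitor thrombospondin-1, stood at 7.68 and 7.79 in -GFs medium, 9.30 and 9.29 with FGF2, and 7.91 and 7.80 with BMP4. It rose by 1.56 with FGF2 (limma's adjusted p = 0.00524) and differed by 0.12 with BMP4. The cyclin-dependent kinase inhibitor genes CDKN1A (0.02 and -0.09 for FGF2 and BMP4), CDKN2A (-0.46 and -0.09) and CDKN2B (-0.03 and 0.06) did not pass with either factor. CDKN2A passed for FGF2 with the replicate block (adjusted p = 0.0332). With BMP4, 0 of the 4 passed in limma, where only 0.00842% of all genes did. At an unadjusted p under 0.05 it was also 0, beside 1.81% of all genes. Of the genes for the turnover of ID proteins, the deubiquitinase gene USP1 (0.42 and 0.00), FZR1 (-0.16 and 0.12) and CDC20 (-0.38 and -0.13), 0 of 3 passed with either factor in limma, also without adjustment at 0.05. At that unadjusted level 23.3% of all genes passed with FGF2 and 1.81% with BMP4. With the replicate block USP1 (0.0355) and CDC20 (0.0524) passed for FGF2, beside 18.1% of all genes as higher and 19.6% as lower.

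The family was chosen from the BMP4 contrast on these same arrays, so that nothing is read from the sign of that difference. Across the other processing choices, the differences of all 5 ID names with BMP4 stayed above 0. They went from 2.67 to 2.98 for ID1, 1.10 to 2.47 for ID2, 1.13 to 3.34 for IDB2, 1.76 to 2.75 for ID3 and 0.71 to 1.48 for ID4. With FGF2, ID1 stayed above 0 (0.21 to 0.54), and ID2, IDB2 and ID4 stayed below 0. ID2 passed an adjusted p of 0.1 in 13 of the 20 settings that gave a value for it.

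**Figure D5:**
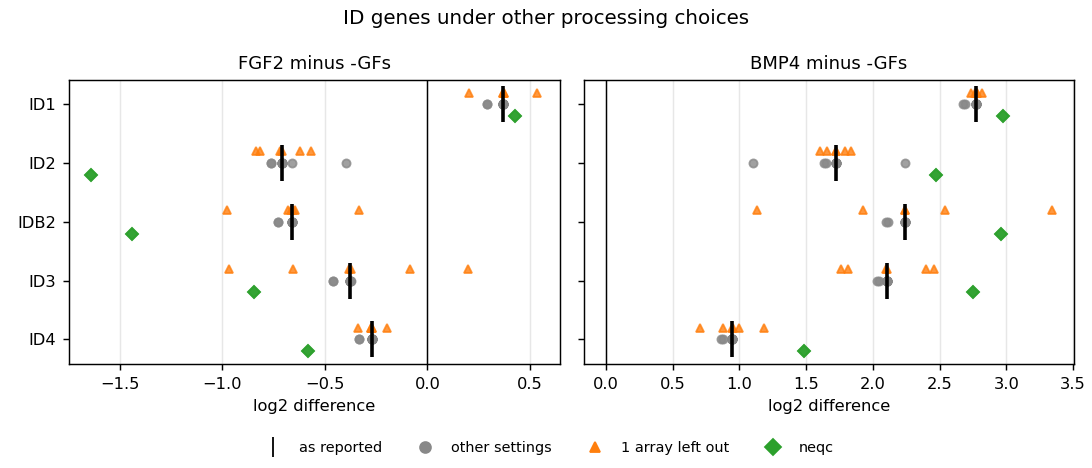
Log2 difference from -GFs (horizontal axes) of the 5 ID names under each processing choice; black ticks are the values as reported, triangles leave out 1 array, diamonds use neqc and grey circles the other settings. With BMP4 all symbols lie above 0, and with FGF2 ID3 alone has a value across 0 (0.20), while neqc gives the lowest values of ID2 (-1.64) and IDB2 (-1.44).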

How the data were processed

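The authors hybridized RNA of 3 h cultures of PA6 cells to BeadChips (Illumina MouseWG-6 v2.0) and processed the scans with BeadStudio. The submitters' processing notes name GenomeStudio 2011.01. The values they deposited are array intensities per probe on a linear scale, without normalization between arrays, with detection p-values. In addition, 9 unheaded columns and 6 leftover lines of the table were not used.

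The methods' cubic spline was rebuilt under R 4.3.3 (452 quantiles mapped onto their mean over arrays, a straight line through 0 beyond the outermost), followed by log2. A probe was retained if some group had it detected (detection p below 0.05) on its 2 arrays, which left 16111 probes. Of several probes with 1 name, that of the largest mean was taken (11872 names). The limma 3.58.1 model held the 3 groups and all 6 arrays and no block, leaving 3 residual degrees of freedom, or 2 with the block. Adjusted p-values are limma's, corrected by Benjamini-Hochberg over the 11872 names. The fit was also run on simulated arrays that had no replicate effect. The changes planted there were larger than those reported for the ID genes with FGF2. That run therefore says nothing about changes as small as theirs. Precision is limited by the few arrays.

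Names are those of the array. Lists were matched through RefSeq (GRCm38.p6) symbols and synonyms, under which 21859 of 30854 names match. TCF3 and STRA13, each also a synonym of another gene, were left out of the lists. Named genes are all ID probes, the E proteins, list members past an adjusted p of 0.1 in either contrast, and the 5 genes outside the family most like ID1 and ID4. Other list members given beside these were picked with their values in view. The members and lists were chosen with earlier results of these data known.

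Arrays with the same replicate number deviated together from their group means (r over genes was 0.602 between -GFs and FGF2, 0.741 between -GFs and BMP4, and 0.579 between the factors), and the labels make them 1 biological replicate, so that the numbers pair the arrays. The alternatives were quantile, median or no normalization, neqc (offset 16), other detection filters, and the mean of probes or every probe. Further ones were IDB2 merged with ID2, the block, trend and robust options, an unpaired t-test in place of limma and leaving out each array. Slides are not named in the columns used here, and no slide block was fitted.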

Additional observations from a re-analysis of the deposited data

How the results depend on the processing

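With 2 arrays per group, leaving out an array leaves 1 array in that group, which is assumed to vary like the others. Low signals limit ID2, IDB2 and ID3, since the first 2 were undetected with FGF2 on both arrays and the last on 1. The number of ID names called with FGF2 was 0, and it became 1 with neqc (ID2) and 2 with neqc and the replicate block (ID2 and IDB2), a combination chosen after seeing the data. The number of ID names with both BMP4 arrays above both -GFs arrays went from 5 to 2 when detection on all 6 arrays was required, since only ID1 and ID4 were then tested. The bHLH partners past the adjusted p with FGF2 numbered 4, and 2 without normalization between arrays. With BMP4 they numbered 0, and 2 with the replicate block (ATOH8 and HEY1), but 0 with neqc and the block. The BMP pathway genes past it with FGF2 numbered 1, and became 2 with arrays scaled to the median, 0 with neqc, 6 with the replicate block and 6 with neqc and the block. With each array left out, the bHLH partners passing with FGF2 numbered from 1 to 4 and the BMP pathway genes from 0 to 2. The number of ID names with their BMP4 arrays above their -GFs arrays stayed at 5 in all 6 of these fits. That is the contrast the family was chosen from, so that nothing is read from it. With BMP4 and no block, the list counts could hardly differ from 0, since 0.00842% of all genes passed with all 6 arrays. Without FGF2 replicate 1, ID3 reversed for FGF2 (0.20, adjusted p = 0.853), and its values with each array left out went from -0.966 to 0.20. The cause of these shifts was not tested, other than that fewer names or arrays enter where stated. Of 121 alternative values of these 6 counts, 102 lay within 1.5 times the reported count. These values include the list counts with BMP4 and the count from the contrast the family was chosen from. The share therefore does not measure how stable the results are. The replicate block moved no other of these counts by over 1.5 times.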
